A study of Caenorhabditis elegans with 3 samples.

Results

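The genes described here code for proteins of the spliceosome and for splicing factors of Caenorhabditis elegans. They were the protein-coding genes of the Ensembl annotation whose symbol starts with snr-, lsm-, prp-, prpf-, mog-, rsp-, uaf-, sfa-, sftb- or rnp-, which gave 57 of 19985 protein-coding genes. The other 19928 protein-coding genes were the comparison. The choice rests on symbols alone, so it also takes in genes with work outside splicing, such as lsm-1, whose protein acts in cytoplasmic mRNA decay, and rnp-8, whose protein partners a cytoplasmic poly(A) polymerase.

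The data are peak lists from chromatin precipitated with an anti-GFP antibody in strain OP651. This strain has the allele unc-119(tm4063) and the transgene wgIs651, in which bed-3 is fused to TY1, EGFP and 3xFLAG and which also carries unc-119(+). Mixed-sex, mixed-stage embryos obtained by bleaching, of a labelled age of 4 hours, gave 3 biological replicates of 1 group, numbered 1, 3 and 4. Replicate 1 gave a list of 26338 peaks, replicate 3 one of 29455 and replicate 4 one of 30000, and the replicates pooled gave one of 30000. The deposit describes the pooled list, and those of replicates 3 and 4, as peaks together with background, so a peak found in them alone need not be reproducible. An optimal list of 589 peaks passed the authors' irreproducibility threshold. Its lowest signal, 122, was also that of rank 589 in the pooled list, so in depth it matched the 589 highest pooled peaks. Counts from the optimal list and from the highest pooled peaks are therefore not separate evidence, and an optimal peak can rank low in a replicate. No precipitation from worms without the tag was analysed here, so a peak is not shown to be a site of BED-3 binding, and signal that would arise at these promoters without the tagged protein cannot be told apart from it.

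Splicing removes introns from pre-mRNA. Sm and Lsm proteins form rings on the spliceosomal RNAs, the U2AF, SF1 and SF3 proteins recognise the 3′ splice site and branch point, helicases and other Prp proteins drive the steps of the reaction, and SR proteins help to choose sites. In worms, splicing also joins spliced leader RNAs to the start of most mRNAs, so an annotated 5′ end often marks the trans-splice site and not the start of transcription. BED-3 is a BED-type zinc finger protein known for roles in cell divisions of the epidermis and vulva and in moulting.

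The sequence from 50 bp before to 50 bp after the pooled summit is printed for the 8 strongest distinct peaks of members on chromosomes II, III and IV, to show what lies under them. They come from the RefSeq WBcel235 genome, which is the ce11 assembly of the lists, and are given 5′ to 3′ on the strand of the named gene. Capitals mark TTCGAA, and in the lsm-3 window the reverse complement of GTTCGA, motifs described further on.
snr-1 (chrIV:17087532-17087632, plus strand): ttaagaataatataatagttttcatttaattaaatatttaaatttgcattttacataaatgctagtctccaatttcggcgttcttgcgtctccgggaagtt
mog-5 (chrII:5399354-5399454, plus strand): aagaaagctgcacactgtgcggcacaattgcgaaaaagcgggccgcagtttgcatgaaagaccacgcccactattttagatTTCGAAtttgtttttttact
mog-4 (chrII:14561738-14561838, minus strand): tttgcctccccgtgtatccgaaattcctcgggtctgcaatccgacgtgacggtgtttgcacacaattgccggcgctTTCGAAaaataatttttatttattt
prp-19 (chrIII:5172633-5172733, minus strand): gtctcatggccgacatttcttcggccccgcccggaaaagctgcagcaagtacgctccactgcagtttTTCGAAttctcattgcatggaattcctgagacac
lsm-3 (chrIV:13386213-13386313, plus strand): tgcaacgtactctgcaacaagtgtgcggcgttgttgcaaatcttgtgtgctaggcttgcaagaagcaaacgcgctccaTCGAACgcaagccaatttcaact
mog-3 (chrIII:5308385-5308485, plus strand): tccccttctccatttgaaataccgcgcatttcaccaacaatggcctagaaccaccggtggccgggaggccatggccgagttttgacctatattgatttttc
rsp-1 (chrII:11453178-11453278, plus strand): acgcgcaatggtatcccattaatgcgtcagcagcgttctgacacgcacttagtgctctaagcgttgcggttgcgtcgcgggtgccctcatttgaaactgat
snr-6 (chrIII:12429800-12429900, minus strand): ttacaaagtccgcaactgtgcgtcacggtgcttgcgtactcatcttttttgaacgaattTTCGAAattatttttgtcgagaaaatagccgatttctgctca

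Of the 57 splicing genes, 4 had an optimal peak, namely snr-1, mog-5, mog-4 and prpf-4. For each gene, peaks counted when their summit lay from 1000 bp upstream to 200 bp downstream of an annotated 5′ end, and the highest was taken in each list, so the values of a gene in different lists can come from different sites. The share was 7.02% of splicing genes (exact Clopper-Pearson 95% interval 1.95 to 17.0) and 2.08% of other protein-coding genes (1.88 to 2.29), where 2.09% of all protein-coding genes held one. These intervals cover counting error only, and neighbouring genes that share a peak are not independent. Because the members were not replicates of a condition and the study has 1 group, no test was made. Requiring the peak also among the 1000 highest of the other replicates left 2 of the 4 genes without replicate 1, 3 without replicate 3 and 2 without replicate 4. When the optimal list was limited to its higher-signal part, only snr-1 of the members held a peak.

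The shares were also compared at greater depth. The count among the 1000 highest pooled peaks was chosen after several depths had been looked at. At that depth, which reach down to a signal of 94.6 in the authors' unit, 10 of the 57 splicing genes had one in their window (17.5%, 95% interval 8.75 to 29.9), against 3.37% of other protein-coding genes and a background of 3.41%. Among the 500 highest there were 2 (3.51%, against 1.72% of the others). Any pooled peak at all was present at 40 splicing genes (70.2%, interval 56.6 to 81.6), against 37.4% of the others (36.7 to 38.1) and a background of 37.5%. Of the 10 genes, 6 were also among the 1000 highest of replicate 4, 4 among those of replicate 1 and 2 among those of replicate 3. Requiring them also among the 1000 highest of both other replicates left 2 without replicate 1, 3 without replicate 3 and 2 without replicate 4.

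The replicates' own lists gave the same order. A peak lay in the window of 37 splicing genes in replicate 1, 35 in replicate 3 and 39 in replicate 4, against backgrounds of 36.3%, 39.1% and 37.1%. The mean share was 64.9% ± 3.51 (SD, n = 3) for splicing genes and 37.4% ± 1.47 (SD, n = 3) for the others. The lowest replicate value of the splicing genes, 61.4%, was above the highest of the other genes, 39.1%. A peak in every replicate list was held by 23 splicing genes (40.4%, against 14.4% of the others and a background of 14.5%).

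Among the 1000 highest peaks of the replicates the counts were small. They were 4 genes in replicate 1 (snr-1, prpf-4, mog-5 and prp-19), 4 in replicate 3 (snr-1, mog-5, lsm-7 and sftb-1) and 6 in replicate 4 (snr-1, mog-5, lsm-6, mog-4, mog-3 and prpf-4), against backgrounds of 3.10%, 2.92% and 3.17%. The mean was 8.19% ± 2.03 (SD, n = 3) for splicing genes and 3.05% ± 0.126 (SD, n = 3) for the others. Only snr-1 and mog-5 reached this depth in every replicate, which is 3.51% of the splicing genes (interval 0.428 to 12.1), against a background of 1.35%.

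**Figure D1:**
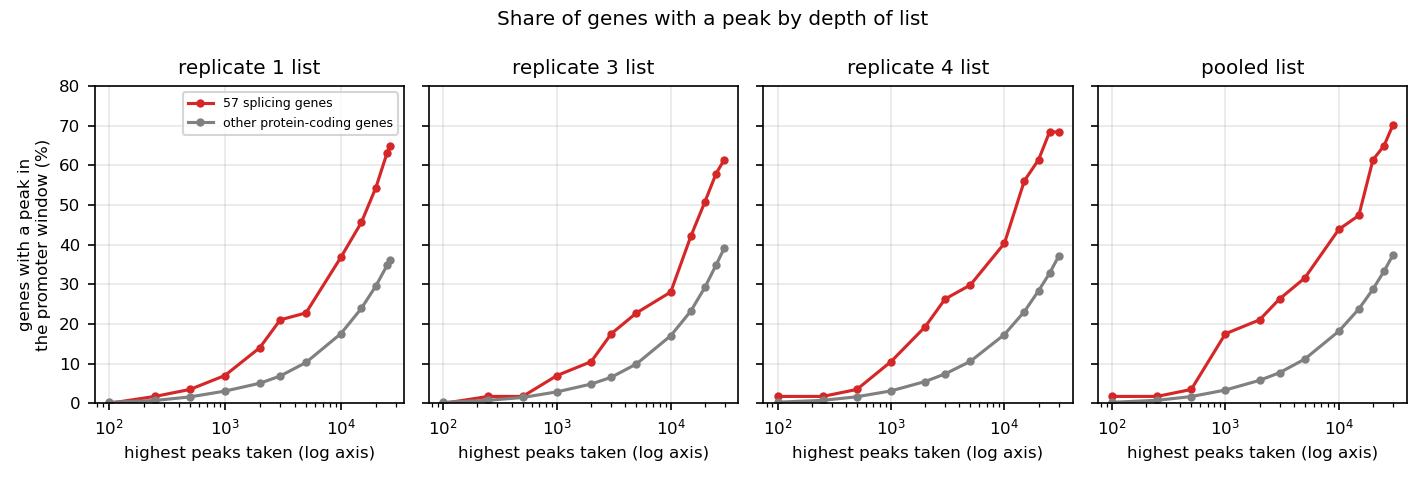
Share of genes with a peak in the promoter window (vertical axis, percent) when only the highest peaks of a list are taken (horizontal axis, number of peaks, log scale), for 57 splicing genes (red) and other protein-coding genes (grey) in each replicate list and the pooled list. In the pooled list the curves lie at 3.51% and 1.72% for the 500 highest peaks and at 70.2% and 37.4% for the whole list.

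The lists did not weigh equally in these sites. The 40 splicing genes with a pooled peak had a summit within 100 bp of it in replicate 1 for 22 genes (55%, against 39.4% of the other genes with a pooled peak), in replicate 3 for 15 (37.5%, against 37.8%) and in replicate 4 for 34 (85%, against 58.1%). All 3 replicates had the site at 8 genes (20%, against 11.1%), which were snr-1, mog-5, mog-4, prpf-4, prp-19, lsm-3, mog-3 and rnp-6. The pooled sites were met most often in replicate 4 and least often in replicate 3. Across the members with a site in both lists, Spearman's rho of signal was 0.52 for replicates 1 and 4 (20 genes), 0.46 for replicates 3 and 4 (12 genes) and 0.27 for replicates 1 and 3 (9 genes). All lists share a control alignment, and these are descriptions over genes.

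The Sm proteins form the ring at the core of the U1, U2, U4 and U5 particles. The gene with the strongest peak of the set was snr-1, which codes for SmD3. Its optimal peak (IV, 17087378 to 17087739) had a pooled signal of 383 and rank 98, with signals of 74.96 in replicate 1, 78.8 in replicate 3 and 240 in replicate 4, where it ranked 170, 118 and 73. It was high in every replicate list. The summit lay in intergenic sequence at -467 bp from the 5′ end of snr-1 and 144 bp from that of the divergent neighbour snx-13, so the peak is nearer to snx-13.

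The other Sm genes were far lower. The peak of snr-6, which codes for SmE (III, 12429622 to 12430077), had a pooled signal of 89.3, just outside the 1000 highest. Its signals were 13.2 in replicate 1 and 49.4 in replicate 4. The value of snr-6 in replicate 3, 24.7, came from a summit outside that interval. At snr-2 (SmB) the pooled signal was 68.9, with 31.4 in replicate 1 and 29.2 in replicate 4 and no peak in replicate 3. At snr-4 (SmD2) the pooled signal was 52.6, with 22.97, 16.4 and 43.7 in replicates 1, 3 and 4, and the summit lay inside the snRNA gene T11F9.15, the only member's peak within 200 bp of a small RNA gene. At snr-5 (SmF) it was 38.4, with 18.8 in replicate 1, 23.1 in replicate 4 and none in replicate 3. In the pooled list snr-3 (SmD1) and snr-7 (SmG) had none. At snr-3 the signals were 14.8 in replicate 1 and 15.4 in replicate 3, both at a peak shared with its divergent neighbour rsp-5, and at snr-7 the signal was 17.2 in replicate 3 alone. Of 7 Sm genes, 5 had a pooled peak, 1 was among the 1000 highest and 1 was optimal. The backgrounds were 37.5%, 3.41% and 2.09%.

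The Lsm proteins form the ring of U6 and a related cytoplasmic ring that works in mRNA decay. Of 7 genes, 5 had a pooled peak and 2 of these were among the 1000 highest, against backgrounds of 37.5% and 3.41%. The highest was lsm-6 (I, 1700934 to 1701389) with a pooled signal of 105, and with 15.5 in replicate 1, 22.9 in replicate 3 and 73.7 in replicate 4. Replicate 4 alone placed it among its 1000 highest. At lsm-3 (IV, 13386035 to 13386490) the pooled signal was 105, with 24.6, 22.6 and 57.1 in replicates 1, 3 and 4, but the summit lay at -940 bp and 61 bp from the 5′ end of Y62E10A.23. At lsm-7 the pattern was the other way round, with 34.3 in replicate 3 (rank 671), 15.5 in replicate 1 and none in replicate 4.

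The mog genes are named for a switch from sperm to oocyte that fails in their mutants, and several code for spliceosomal helicases. They held 2 of the 4 optimal peaks. At mog-5, the worm counterpart of the helicase Prp22, the peak (II, 5399176 to 5399631) had a pooled signal of 174, with 34.0 in replicate 1, 35.8 in replicate 3 and 102 in replicate 4. It was among the 1000 highest in each. Its summit lay 134 bp upstream of the 5′ end. At mog-4, the counterpart of Prp2, the peak (II, 14561560 to 14562015) had a pooled signal of 124, with 27.0, 18.6 and 68.1 in replicates 1, 3 and 4. In replicate 3 it ranked only 8277. At mog-3 (III, 5308207 to 5308662) the pooled signal was 102, with 24.96, 11.7 and 63.4, and it ranked 2547, 26805 and 785 in replicates 1, 3 and 4. At mog-1, the counterpart of Prp16, it was 31.8, and mog-2, which codes for the U2 protein A′, had no peak in any of these lists. Of 6 mog genes, 5 had a pooled peak, 3 were among the 1000 highest and 2 were optimal. The backgrounds were 37.5%, 3.41% and 2.09%.

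Of 14 factors named prp or prpf, 6 had a pooled peak, near the background of 37.5%. Of these, 2 were among the 1000 highest, against a background of 3.41%. A peak was listed at 7 of the 14 in replicate 1, 8 in replicate 3 and 9 in replicate 4. The backgrounds were 36.3%, 39.1% and 37.1%. Every replicate had one at 7, against a background of 14.5%. The genes prp-4, prp-9, prp-31 and prp-39 had none in any of these lists. At prpf-4, a kinase of the Prp4 family, the peak (I, 7094823 to 7095278) had a pooled signal of 122 and rank 589, the lowest of the optimal list, with 44.5, 24.9 and 57.8 in replicates 1, 3 and 4. The next member below this limit was lsm-6 at 105. At prp-19, a ubiquitin ligase of the active spliceosome, the peak (III, 5172455 to 5172910) had a pooled signal of 105, with 31.6, 25.1 and 41.6, and lay at -638 bp and 37 bp from the 5′ end of K10D2.5. At prp-40, the counterpart of a yeast U1 protein, the pooled signal was 56.4, with 12.99, 25.5 and 33.4 in replicates 1, 3 and 4. These replicate values came from other summits. Within 100 bp of the pooled summit replicate 1 had 12.3, replicate 3 had none and replicate 4 had 25.4. The gene of the spliceosome's core protein, prp-8, had no pooled peak but 13.5 in replicate 1, 27.1 in replicate 3 and 25.2 in replicate 4.

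SR proteins bind exons and recruit the machinery. Of 8 genes, 6 had a pooled peak and 2 were among the 1000 highest, against backgrounds of 37.5% and 3.41%. The divergent neighbours rsp-1 and rsp-2, whose gene bodies lie 407 bp apart, shared 1 peak (II, 11453000 to 11453455) with a pooled signal of 94.8, and with 28.6 in replicate 1, 50.4 in replicate 4 and none in replicate 3. It is counted for each gene, so the 10 members among the 1000 highest pooled peaks rest on 9 peaks. At rsp-7 the pooled signal was 68.2 and at rsp-3, the worm counterpart of SRSF1, it was 57.02, with 24.6, 15.1 and 27.2 in replicates 1, 3 and 4. No list had a peak at rsp-4.

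Genes for recognition of the 3′ splice site and branch point all had a peak in the pooled list, none of them high. The peak of sftb-1, the SF3B1 counterpart, had a pooled signal of 65.9, with 18.6, 32.5 and 44.1 in replicates 1, 3 and 4, and it lay in an intron of R10E4.1. At uaf-2, the small U2AF subunit, the pooled signal was 60.004 and replicate 4 alone had a peak, at 57.5. Signals were lower at sftb-6 (46.9), sftb-2 (38.6), sfa-1, the branch point protein SF1 (31.1), and uaf-1, the large U2AF subunit (29.9). In this class 6 of 6 had a pooled peak and 0 were among the 1000 highest, against backgrounds of 37.5% and 3.41%. The replicates' own lists held fewer, with 2 of 6 in replicate 1, 4 in replicate 3 and 5 in replicate 4. The backgrounds were 36.3%, 39.1% and 37.1%. Every replicate had one at 2, against a background of 14.5%.

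The 9 rnp genes code for RNA-binding proteins, and 7 had a pooled peak, against a background of 37.5%. The highest was rnp-6, the PUF60 counterpart (I, 3546754 to 3547209), with a pooled signal of 93.4, and with 18.8, 26.5 and 37.3 in replicates 1, 3 and 4. At rnp-7, the U1-70K protein gene, the pooled signal was 66.9 and the summit lay 28 bp inside the gene. No peak was listed at rnp-9, the only member on chromosome X. Over the whole set, 7 of 57 splicing genes had no peak in the pooled list or any replicate list (12.3%, against 34.6% of the others and a background of 34.5%).

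**Figure D2:**
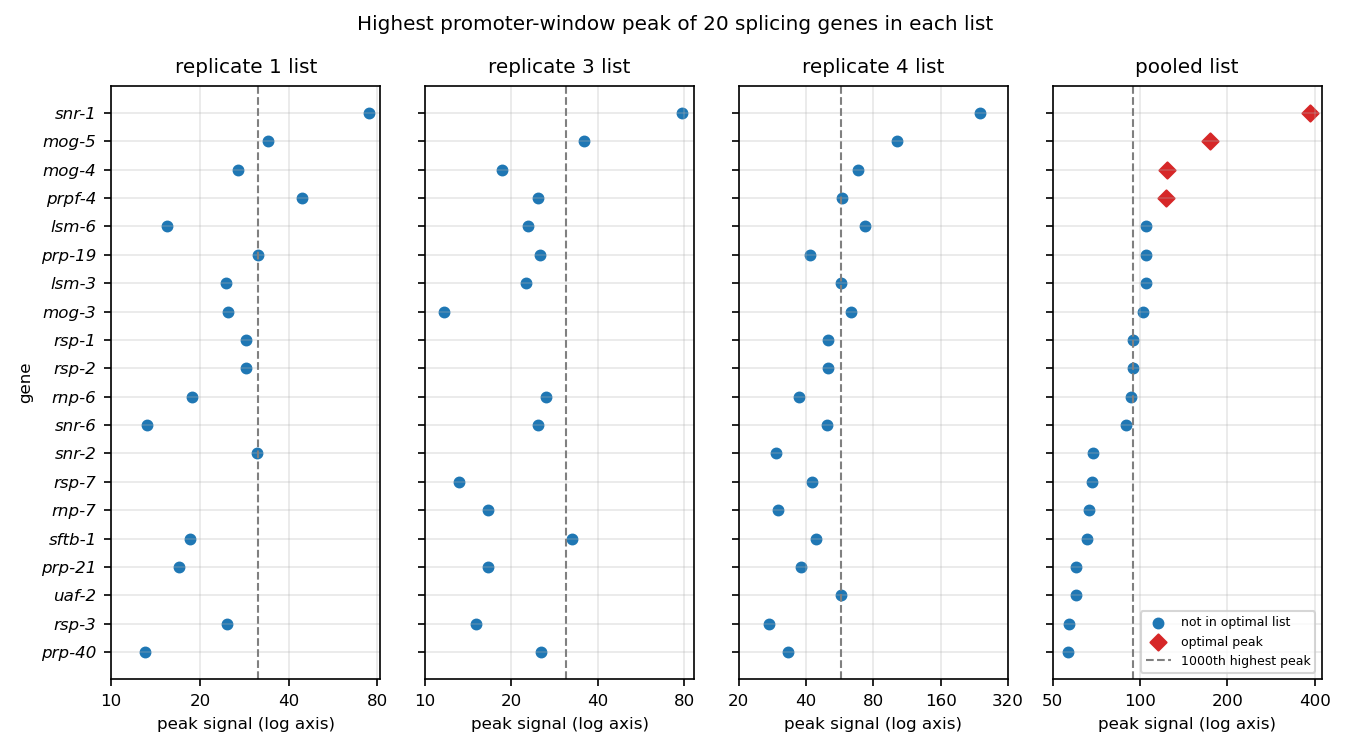
Signal of the highest promoter-window peak (horizontal axis, log scale, the authors' unit, comparable within a list only) for the 20 splicing genes with the highest pooled signal, in each replicate list and the pooled list. Diamonds are optimal peaks, the dashed line is the signal of the 1000th highest peak of the list, and a missing point means no peak: only snr-1 and mog-5 lie beyond that line in all 4 panels.

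Among genes with a peak, signal differed less than the shares did. The median over the 40 splicing genes with a pooled peak was 54.5, against 45.2 over 7450 other protein-coding genes with one. In the replicate lists the medians were 18.6 against 17.3 (replicate 1), 16.6 against 16.5 (replicate 3) and 31.2 against 27.8 (replicate 4). In replicate 3 they were nearly equal.

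Summits lay upstream. The quartiles of the members' summit positions in the pooled list were -591 and -163.25 bp, against -600 and -79 bp for the other genes. The medians in the replicate lists were -281, -325 and -316 bp for splicing genes in replicates 1, 3 and 4, against -305, -320 and -305 bp for the others. In the pooled list 37 of 40 summits (92.5%) were upstream of that 5′ end, against 83.2%. Where a gene has more than 1 annotated 5′ end, such a summit can lie inside the gene. At mog-7, uaf-1, rnp-8 and prp-40 it lay in an intron of the gene itself. Of the 40 summits, 27 were intergenic, 5 in introns, 5 in coding exons, 2 in untranslated exons and 1 in a non-coding gene. The summits nearest to the window's upstream edge were those of prp-21 at -994 bp and mog-7 at -987 bp. With the window extended to 2000 bp, mog-2 (signal 42.8 at -1273 bp) and snr-7 (36.6 at -1657 bp) gained a peak.

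**Figure D3:**
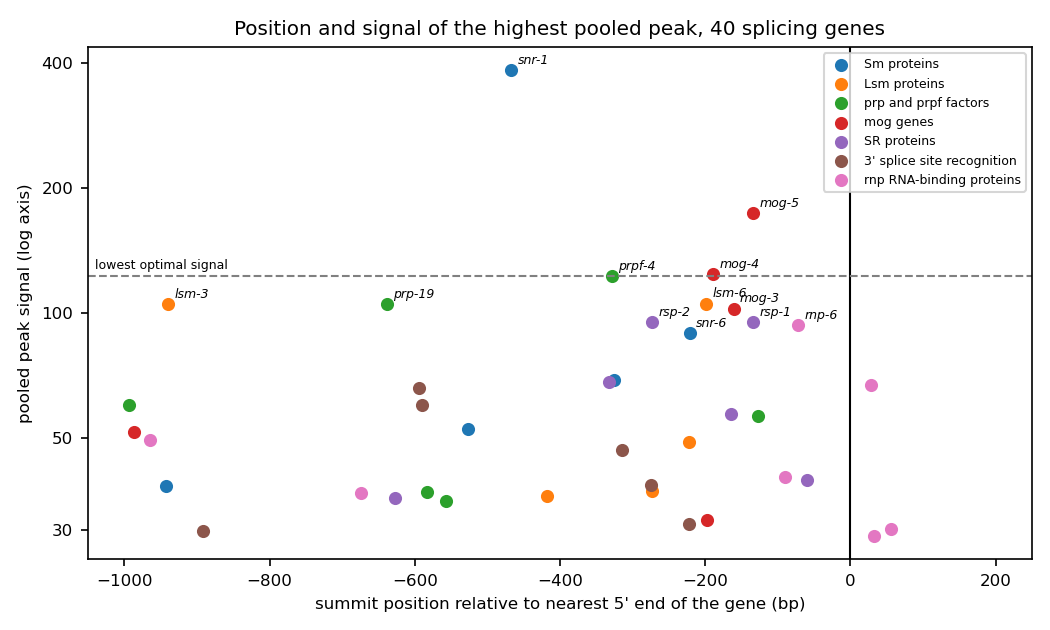
Signal of the highest pooled peak (vertical axis, log scale, the authors' unit) by the position of its summit relative to the nearest annotated 5′ end of the gene (horizontal axis, bp, negative upstream) for the 40 splicing genes with one, coloured by class. The 12 highest are labelled. The dashed line is the lowest signal of the optimal list, 122, and 4 genes lie on or above it.

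Many of these promoters were shared with a neighbour, an arrangement that was examined, with its limit of 500 bp, after values had been seen. Of the 57 splicing genes, 20 (35.1%) had a divergent coding gene within 500 bp upstream, against 9.02% of other protein-coding genes. The same peak was the highest of another coding gene for 23 of the 40 members with one (57.5%, against 25.8% of the others), and the nearest coding 5′ end was the member's own for 24 (60%, against 82.9%). When a peak was counted for the nearest coding 5′ end alone, 28 splicing genes kept a pooled peak (49.1%, against 32.1% of the others), 6 were among the 1000 highest (10.5%, against 2.44%) and 3 held an optimal peak (5.26%, against 1.46%). The lost optimal gene was snr-1.

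Within each of these arrangements the share with any pooled peak was higher at splicing genes, which did not hold for optimal peaks. It was 13 of 20 genes with a divergent neighbour within 500 bp (65%, against 47.1% of other genes so arranged), 13 of 15 with a divergent neighbour farther off (86.7%, against 39.1%), 7 of 12 with a neighbour on the same strand within 500 bp (58.3%, against 35.6%) and 5 of 6 with one farther off (83.3%, against 34.2%). The 4 optimal members all had a divergent neighbour farther than 500 bp (26.7% of members so arranged, against 2.67% of other genes). An optimal peak was held by 0 of 20 members with a divergent neighbour within 500 bp, against 5.12% of other genes so arranged. It was held by 0 of 12 with a same-strand neighbour within 500 bp, against 1.70%, and by 0 of 6 with one farther off, against 0.905%. Window length was alike, at a mean of 1452 bp for splicing genes and 1459 bp for the others, and pooled peaks numbered 5.92 per 10 kb of window against 3.69.

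**Figure D4:**
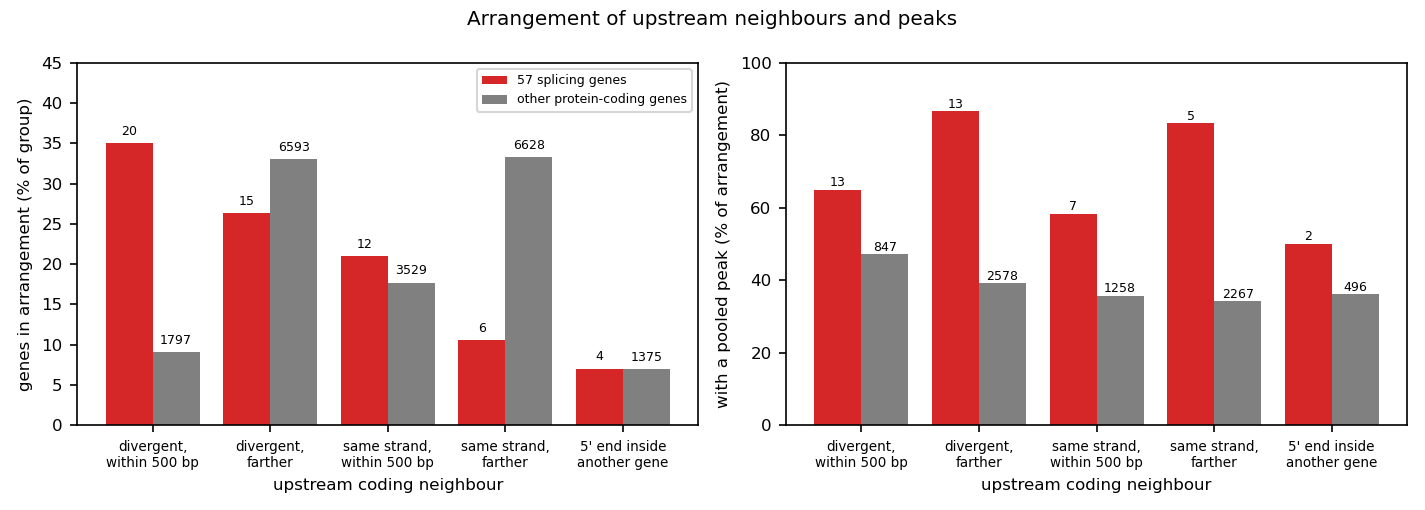
Left, share of 57 splicing genes (red) and of other protein-coding genes (grey) by the position of the nearest coding gene upstream, in percent of the group, with the number of genes above each bar. Right, share of the genes in each arrangement with a pooled peak in the window, in percent, with the number of genes with a peak above each bar. Splicing genes stand at 35.1% against 9.02% in the class with a divergent neighbour within 500 bp, and the red bar is the higher one in every class on the right.

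The sequence TTCGAA, its own reverse complement, stood out in the windows printed above, at mog-5, mog-4, prp-19 and snr-6. It was chosen after those windows were seen and got no test. It occurred within 50 bp of the summit at 9 of 40 splicing genes with a pooled peak (22.5%), against 5.71% of the other genes with one. These 9 include mog-5, mog-4, prp-19 and snr-6, so the contrast is not independent of the choice of motif. Under the 1000 highest pooled peaks TTCGAA was at 3 of 10 members (30%, against 4.86%), namely mog-5, mog-4 and prp-19. Windows on chromosome I were not printed. Of those, the windows of prpf-4 and lsm-6 lacked TTCGAA and that of rnp-6 held it. From 250 bp before to 50 bp after the outermost 5′ end TTCGAA occurred at 29 of 57 splicing genes (50.9%), against 18.1% of other protein-coding genes. Those 29 include mog-5, mog-4 and snr-6. In the same promoter stretch TTCGAA was also at 20 of 48 splicing genes that lack these symbol prefixes (41.7%), so it was not confined to the 57. It was at 18 of 78 cytosolic ribosomal protein genes (23.1%). Both of these groups are described further on. Among members with a divergent neighbour TTCGAA was at 15 of 20 within 500 bp (75%, against 23.9%) and at 10 of 15 farther off (66.7%, against 17.6%). With a same-strand neighbour it was at 2 of 12 within 500 bp (16.7%, against 19.4%) and at 1 of 6 farther off (16.7%, against 16.2%). Where the 5′ end lay inside another coding gene it was at 1 of 4 (25%, against 19.1%). Divergent members such as rsp-5 and snr-3 share sequence, so these are not independent promoters.

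Splicing genes with TTCGAA in the promoter did not have a pooled peak more often than those without it. A pooled peak was present at 19 of 29 splicing genes with it (65.5%) and at 21 of 28 without it (75%). Among other genes the shares were 39.8% with and 36.8% without. Among the 1000 highest pooled peaks were 3 of 29 splicing genes with it (10.3%) and 7 of 28 without it (25%). Other genes had a higher share with it (137 of 3612) than without it (522 of 16304). Optimal peaks went the other way at splicing genes, with 3 of 29 with it (10.3%) and 1 of 28 without it (3.57%). Other genes held one at 2.41% with it and 1.93% without it. Replicate 3 also went the other way, with 22 of 29 against 13 of 28, and other genes stood at 40.6% and 38.7%. Replicates 1 and 4 had 18 of 29 in each against 19 and 21 of 28. Other genes stood at 38.2% against 35.7% in replicate 1 and 38.8% against 36.6% in replicate 4.

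The other 6 motifs were likewise searched on both strands, within 50 bp of the summits of the 40 members. The motif GCGCGC was at none of them, against 3.43% of other genes with a pooled peak, and the same held for TGATAA (against 6.78%) and for CACGTG (against 1.88%). TATAAA was at 5 (12.5%, against 10.7%), GAGAGA at 2 (5%, against 8.38%) and GTTCGA at 1 (2.5%, against 3.70%), the lsm-3 window printed above. The letters of GTTCGA overlap in part with those of TTCGAA. In promoters, TATAAA was at 13 of 57 splicing genes (22.8%, against 38.1%), TGATAA at 11 (19.3%, against 30.3%), GAGAGA at 10 (17.5%, against 21.8%) and CACGTG at 2 (3.51%, against 5.85%). The promoter shares of GCGCGC, at 4 (7.02%, against 3.58%), and of GTTCGA, at 8 (14.0%, against 9.91%), were higher at splicing genes. In the summit windows both were lower, but those shares rest on 0 and 1 of 40 members. Under the 1000 highest pooled peaks GTTCGA was at 1 of 10 members (10%, against 7.74%) and GCGCGC at 0 (against 10.9%). 

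Other genes of splicing lack these symbol prefixes. Of a list of 50 symbols, 48 matched the annotation. The gene luc-7L3, listed under another spelling, was not matched or counted, though it shares the pooled peak of sftb-6. A pooled peak was present at 32 of the 48 (66.7%, against a background of 37.5%). Of the 48, 4 were among the 1000 highest (8.33%, against 3.41%) and 2 held an optimal peak (4.17%, against 2.09%). The median pooled signal was 55.8. The optimal ones were plrg-1, a partner of Prp19 (signal 256), and teg-1, which codes for a protein of the CD2BP2 family (signal 163). At plrg-1 the signals were 97.1, 54.5 and 109 in replicates 1, 3 and 4, and at teg-1 they were 31.1, 43.8 and 99.4. The next highest were pinn-1 at 109 and hrpr-1 at 102.

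Splicing genes had a peak less often than cytosolic ribosomal protein genes, a family set beside them after values had been seen. Of the 57 splicing genes, 40 had a pooled peak (70.2%), 10 were among the 1000 highest (17.5%) and 4 had an optimal peak (7.02%). Of the 78 ribosomal protein genes, 66 (84.6%), 22 (28.2%) and 13 (16.7%) did. Over all protein-coding genes the shares were 37.5%, 3.41% and 2.09%. The 1000 highest peaks of the replicates held 8.19% ± 2.03 of splicing genes and 21.4% ± 0.740 of ribosomal protein genes (SD, n = 3 each). The replicate values of the families did not overlap. The backgrounds were 3.10%, 2.92% and 3.17% in replicates 1, 3 and 4.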

How the data were processed

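The peak signal (column 7), start, end and summit offset are the authors' deposited values, in ce11 coordinates per the labels, from a caller not given in the sources used here. Signal is relative to a control alignment and was compared within a list only. Per the deposited file listing, each replicate list came from its own alignments, the pooled list from all 3, and the optimal list from the pooled list with those of replicates 3 and 4. Read depth was not analysed here. Gene models were Ensembl release 115 on WBcel235. For each protein-coding gene the highest peak with its summit from 1000 bp upstream to 200 bp downstream of any 5′ end was taken, and positions count from 1. Small RNA genes were nuclear tRNA, snoRNA, snRNA and rRNA genes. Intervals are exact Clopper-Pearson at 95%. Shares were described and no test was run, since the study has 1 group. The members, lists and motifs were chosen with earlier results of these data known; the depth of 1000 pooled peaks, the neighbour arrangement, the ribosomal protein comparison and TTCGAA were chosen after values were seen here.

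Genes were named by rule: those with an optimal peak, the 20 highest pooled signals, all snr- genes, all genes with no peak in any list, the members next to the optimal limit and, of the other splicing genes, the optimal ones and the 4 highest. Further members were named to fill in their class, after their values were seen. Alternatives varied window, 5′ ends, assignment, list depth, small RNA genes and replicates. The steps were checked on simulated peaks. Python 3.11.15, numpy 2.4.6, pandas 2.3.3 and scipy 1.17.1 were used.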

Additional observations from a re-analysis of the deposited data

How the results depend on the processing

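Each of 43 computed shares was higher for splicing genes than for other protein-coding genes. These shares include the reported ones and several measures per setting. All are recounts of the same genes and lists, so they are not separate evidence. Of 47 alternative values, 33 stayed within 1.5 times the reported count or, for medians, within the 95% interval of the reported median. With the window cut to 500 bp upstream, 28 members had a pooled peak (49.1%, against 27.8% of the others) and 1 member was among the 1000 highest peaks of every replicate. The median summit position was then -198.5 bp, against -160 bp for the others, and a shorter window can hold nearer summits only. Counted by nearest coding 5′ end, it was also -198.5 bp, against -230 bp for the others. By nearest coding 5′ end, 1 member was among the 1000 highest of every replicate and 6 among the 1000 highest of the pooled list, since a peak then counts for 1 gene only. The upper part of the optimal list held 1 member. With the 500 highest peaks, 1 member was found in every replicate and 2 in the pooled list. Among genes with 1 annotated 5′ end, 23 members had a pooled peak (63.9%, against 31.1% of the others), a count lowered by the smaller number of genes. Leaving out replicates gave 2 to 3 members with an optimal peak, 2 to 3 among the 1000 highest pooled peaks and 2 to 3 among the 1000 highest of every remaining replicate. These filters require a peak in the other replicates and do not remove a replicate's reads from the pooled list. The settings on the pooled 1000 highest peaks, on autosomes, on 1 annotated 5′ end and on matching sites were added after the data were seen. Few members reach the strongest peaks, so counts there move by a factor of 2 with a change of 1 or 2 genes. No paired analysis was possible because there is 1 group and no test.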
